A study of Oncorhynchus mykiss with 16 samples.

Results

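Livers of juvenile rainbow trout (Oncorhynchus mykiss) kept on site in 50% municipal wastewater effluent were compared with livers of trout kept in 10% effluent. The comparison covers 8 of the 16 arrays of the study, chosen by their titles: 4 arrays of the 10% group and 4 of the 50% group. On each array the RNA of 1 liver pool, labelled with Cy5 or Cy3, competed with a common reference in the other dye, made by pooling RNA of all the study's samples. The pools are given as biological replicates. The number of fish in a pool is not given in the sources used here, and neither are the length of the exposure, the strain and a more exact age. The remaining 8 arrays were 4 of upstream control fish (0%) and 4 of fish in undiluted effluent (100%). They entered only the shared estimate of spread and of the dye effect, and the normalization of channel levels between arrays. Since each pool has a single array, the p-values measure pool and array variation together.

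Municipal effluent is a mixture that can hold natural and synthetic hormones, drugs, metals and industrial chemicals. The fish liver takes up and metabolises such compounds, makes most plasma proteins, and in fish exposed to estrogens makes the egg yolk precursor vitellogenin. Small arrays of chosen cDNAs were built to follow such liver responses. The 152 genes of this array are known here by number only, since neither the files nor the reference table at hand pairs the numbers with names. No function, position or sequence can therefore be given for a gene, and the labelled tissue could not be checked against liver markers.

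Most genes gave dim spots, and the arrays differed in how many genes cleared the blank spots. On the 10% arrays, 30, 33, 104 and 143 of the 152 genes stood above the blank spots in the pool's channel (replicates 1 to 4). On the 50% arrays these counts were 124, 71, 104 and 96. A gene counted as above the blanks when its signal over local background passed a limit 3 SD above the average of the 32 blank spots. In the pool's channel this limit was 1.13, 1.11, 1.05 and 1.03 times the background at 10%, and 1.04, 1.05, 1.04 and 1.06 times at 50%. The typical gene spot there was at 1.05, 1.05, 1.07 and 1.07 times at 10%, and at 1.10, 1.04, 1.08 and 1.08 times at 50%. The counts thus depend on each array's limit as well as on the brightness of its genes. The share was 50.99% ± 36.5 at 10% and 65.0% ± 14.4 at 50% (SD, n = 4 each), a difference of 13.98 percentage points that was smaller than the spread between arrays (exact two-sided permutation p = 0.543, smallest possible 0.0286). Without 10% replicate 4 the difference was 28.3 points (exact permutation p = 0.200). In the reference's channel, which holds the same RNA on every array, 99, 65, 87 and 35 genes were above the blanks at 10% and 115, 41, 91 and 95 at 50%. In both channels at once the share was 27.5% ± 17.5 at 10% and 53.8% ± 19.9 at 50% (exact permutation p = 0.0571, n = 4 each).

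**Figure D1:**
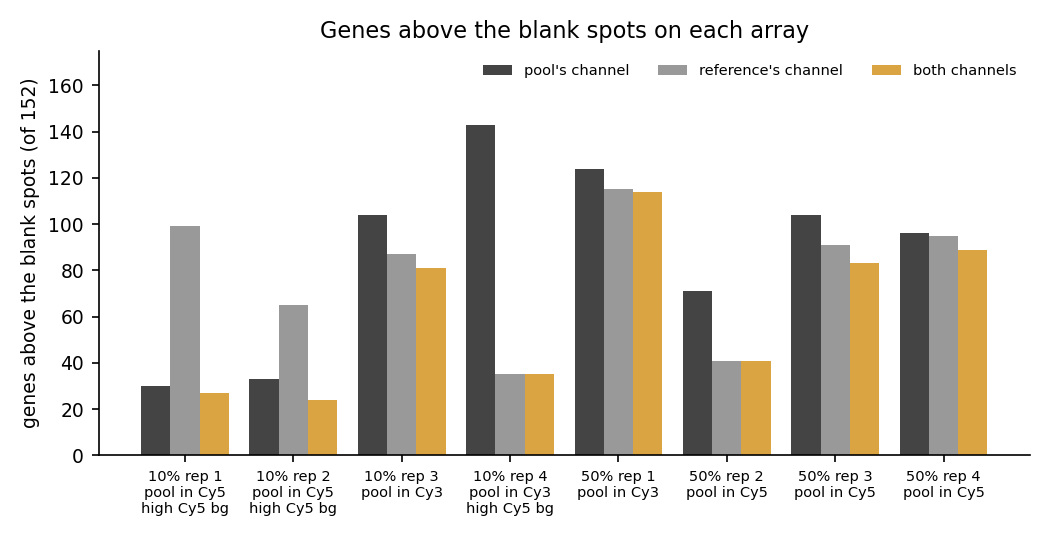
Number of the 152 genes above the blank spots on each of the 8 arrays, in the channel of the pool (dark), in that of the reference (grey) and in both (yellow). By the dye labels, the pool's channel ranges from 30 to 143 genes at 10% and from 71 to 124 at 50%. The 3 arrays marked for high Cy5 background are all in the 10% group.

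The median Cy5 background was 4943, 4884, 422 and 5599.65 on the 10% arrays and 375, 593, 549.8 and 607 on the 50% arrays. A median above 1000, as on 10% replicates 1, 2 and 4, is called high here. Pools were in Cy5 on 2 of 4 arrays at 10% (replicates 1 and 2) and on 3 of 4 at 50% (replicates 2, 3 and 4). The direction of 10% replicate 4 is in doubt: the authors' deposited ratios correlated with its scanner ratios at -0.318 across genes, against 0.875 to 0.985 on the other 7 arrays. All signed values follow the dye labels, so for this array they run against the deposited table. Turning the array changes only the sign of that correlation. The turned array therefore still matches the deposited table less closely than the other 7 arrays do. The differences of the named genes and the counts of genes by p-value or by overlap of the groups are also given without that array and with its sign turned. Statements on genes above the blanks follow its dye label throughout. By that label 143 genes were above the blanks in its pool's channel, and with its channels exchanged this count would be 35. Across genes, pairs of arrays of the 10% group correlated at -0.581 to 0.42 (median -0.0975 over 6 pairs) and pairs of the 50% group at -0.255 to 0.303 (median 0.0917). The 3 pairs of the 10% group without replicate 4 lay between -0.132 and 0.42. Within the groups, pairs with both pools in the same dye lay between 0.116 and 0.42. Pairs with the pools in different dyes lay between -0.581 and 0.00464. Between the groups, the median was -0.0106 for pairs of the same dye and 0.0173 for the others. What part the dye has in these correlations was not tested. Replicate 3 at 10% and replicate 1 at 50%, both with the pool in Cy3, correlated at -0.328. Since the labels state both dyes, neither array was turned for that.

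Values below are log2 ratios of pool over reference, and differences are those of 50% minus 10% from limma, adjusted for the dye. Gene 69 was lower at 50% than at 10% effluent and was the 1 gene of 152 that passed the adjusted threshold of 0.05, or 0.658% of those tested. No gene passed as higher. Gene 69 stood at 0.58, 0.34, -0.024 and -0.00044 in the 10% pools and at -1.02, -0.20, -0.76 and -1.17 in the 50% pools. The groups did not overlap, and all 4 pools at 50% lay below all 4 at 10%. The means were 0.22 ± 0.29 and -0.78 ± 0.43 (SD, n = 4 each). The dye-adjusted difference was -1.05 (SE 0.21, 95% interval -1.49 to -0.61) on the log2 scale (limma, adjusted p = 0.0226). At 10% neither channel of gene 69 was above the blanks on replicates 1 and 2, which held the highest ratios, so no fold is given. Whether the lower ratio reflects less RNA of gene 69 in the 50% livers was not tested. In whole liver, fewer cells of a type and less RNA per cell could not be told apart in any case. An exact two-sided permutation test of the 4 pools against 4 gave p = 0.0286, the smallest possible. Any gene whose groups do not overlap gets this p. Gene 69 was chosen from 152 in the same data, so the test adds no separate support. Without 10% replicate 4 the difference was -1.10 (adjusted p = 0.0411 by limma), and with that array turned it was -1.05 (adjusted p = 0.0218 by limma). Since gene 69 was at -0.00044 on that array, turning it could hardly change the difference.

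Since the groups did not overlap, the difference in gene 69 must have the same sign within each dye, which is no separate support. Among pools in Cy5 the values were 0.58 and 0.34 at 10% against -0.20, -0.76 and -1.17 at 50%, a difference of -1.17 in limma on the Cy5 arrays alone (adjusted p = 0.108). Among pools in Cy3 they were -0.024 and -0.00044 against -1.02, a difference of -1.01 (adjusted p = 0.111 by limma), where the 1 pool at 50% is assumed to vary like the others. Neither value passed on its own. With only the 8 arrays of the 2 groups in the fit, gene 69 was at -1.11 (limma, adjusted p = 0.133). With the high Cy5 background as a block it was -0.90 (adjusted p = 0.358 by limma). On low-background arrays alone it was -0.999 (adjusted p = 0.998 by limma), resting on 10% replicate 3 alone in its group. Leaving out 10% replicate 1 or 2, or 50% replicate 1, 3 or 4, also ended the call, with adjusted p-values of 0.0753 to 0.154 by limma.

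The 2 spots of gene 69 did not always lie close together. They were at 0.030 and 1.13 on 10% replicate 1, at 0.53 and 0.16 on replicate 2, at 0.14 and -0.18 on replicate 3, and at 0.37 and -0.38 on replicate 4. At 50% they were at -1.19 and -0.85, at -0.40 and 0.011, at -0.64 and -0.87, and at -0.24 and -2.09. No spot at 10% lay below -0.38, and 2 of the 8 spots at 50%, 1 each of replicates 2 and 4, were above that value too. The lowest value of the group, that of 50% replicate 4, rests on 1 of its 2 spots.

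The channels behind the ratio of gene 69 differed between the groups in an unequal way. In the pool's channel its signal was 1.11, 1.06, 1.12 and 1.07 times the local background at 10%, and 1.55, 1.56, 1.40 and 1.72 times at 50%. In the reference's channel it was 1.05, 1.05, 1.09 and 1.04 times at 10%, and 3.82, 1.42, 1.63 and 3.10 times at 50%. Relative to local background, both channels were thus higher on every 50% array than on any 10% array. Both were above the blanks on all 4 arrays at 50%. These multiples depend on the background, whose Cy5 median was 4943, 4884 and 5599.65 on 10% replicates 1, 2 and 4 and at most 607 at 50%. At 10% the pool's channel was above the blanks on replicates 3 and 4 and the reference's on replicate 3 alone. After normalization between arrays, the pool's channel averaged 7.41 ± 0.32 at 10% and 8.30 ± 0.41 at 50% (log2 intensity, SD, n = 4 each). The groups overlapped there, since 10% replicate 1 was at 7.88 and 50% replicate 3 at 7.85. The reference's channel averaged 7.19 ± 0.23 and 9.08 ± 0.41, with no overlap. The lower ratio at 50% therefore went with a reference signal that was 1.90 log2 units higher, against 0.89 for the pool, although the reference RNA was the same. Among the 152 genes this change of the reference's channel had rank 4 in size, where the median was 0.268. What part the low signal of gene 69 on the 10% arrays has in its ratio was not tested.

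**Figure D2:**
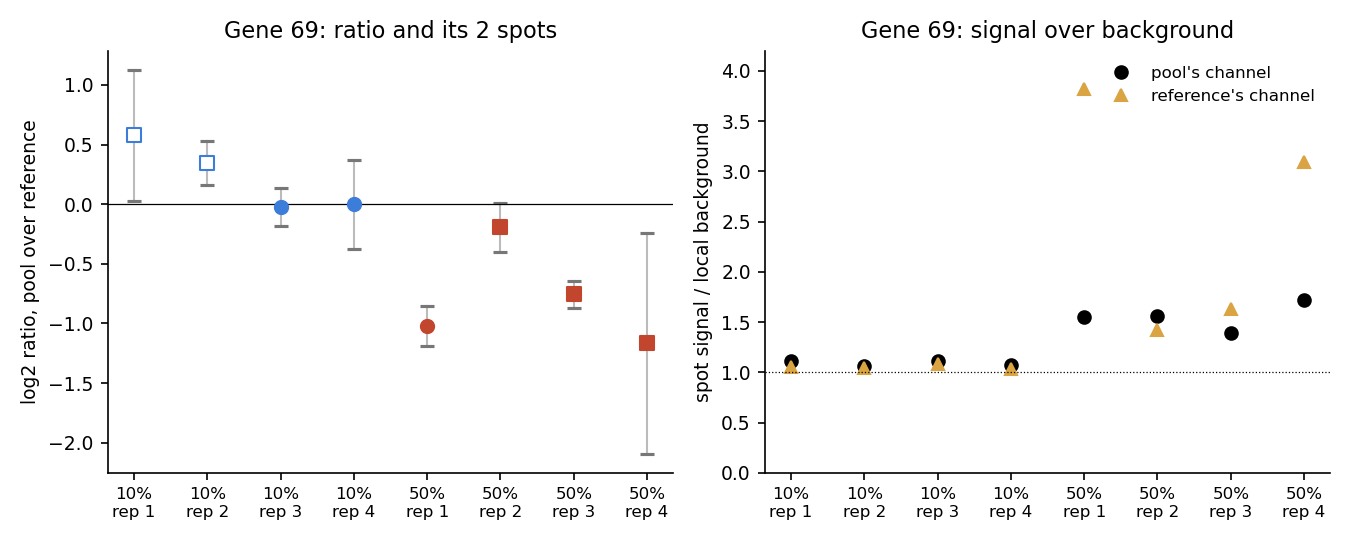
Gene 69 on the 8 arrays: left, the log2 ratio of pool over reference (squares: pool in Cy5, circles: pool in Cy3, open: not above the blank spots in the pool's channel), with grey dashes for its 2 spots; right, signal over local background in the channel of the pool (black) and of the reference (yellow). All 4 ratios at 50% are below those at 10%, while both channels lie near 1 at 10% and higher at 50%.

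Across the whole array the differences were small and evenly split. Their median was 0.024 on the log2 scale, the quartiles were -0.13 and 0.14, and 79 of 152 were higher at 50%. The median standard error was 0.18, and the half-width of the 95% interval had a median of 0.39, so that smaller differences could not be told from 0 in the typical gene. By limma, 13 of 152 genes (8.55%) had an unadjusted p under 0.05. Of these, 7 were higher at 50% (4.61%) and 6 were lower (3.95%). Without 10% replicate 4 there were 14 such genes (9.21%), 12 higher (7.89%) and 2 lower (1.32%). With it turned there were 17 (11.2%), 14 higher (9.21%) and 3 lower (1.97%). The split between higher and lower also moved with the scaling: it was 5 to 7 with a normexp offset of 10, 11 to 4 without background correction, 3 to 15 with median centring in place of loess, and 18 to 5 in the authors' deposited ratios. Of the 13 genes, 8 were among those of unadjusted p under 0.05 in all 3 treatments of 10% replicate 4: genes 24, 35, 46, 51, 73 and 144, higher at 50%, and genes 69 and 169, lower. Another 6 genes joined both without the array and with it turned, and all 3 treatments together gave 22 genes.

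**Figure D3:**
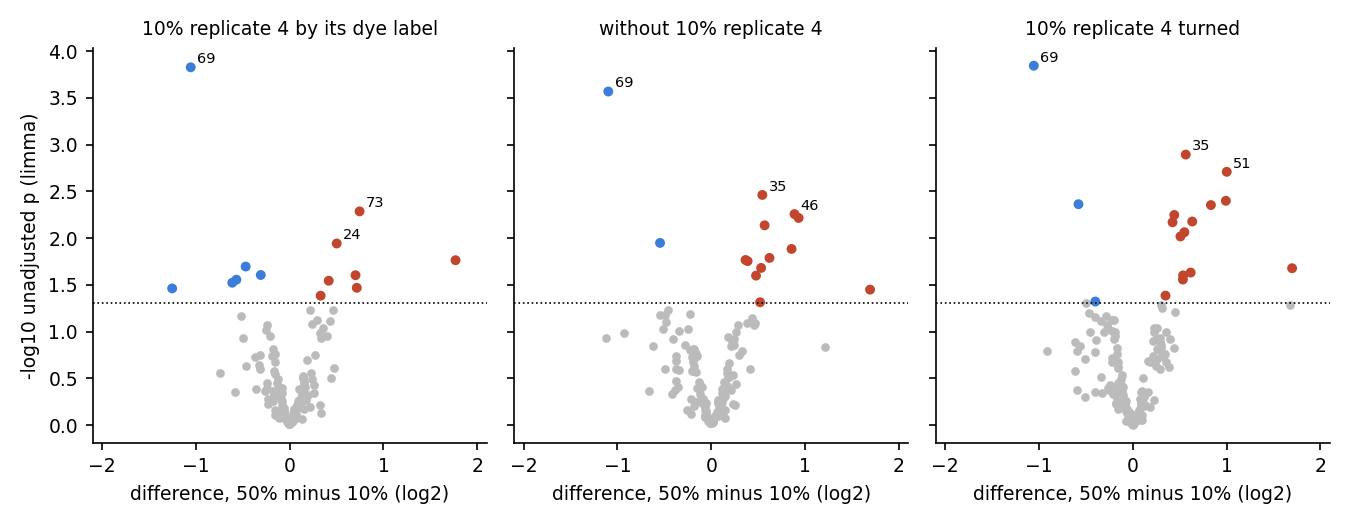
Difference between 50% and 10% effluent (log2, x axis) against -log10 of the unadjusted p from limma (y axis) for 152 genes, with 10% replicate 4 taken by its dye label, left out, or turned. Coloured points are past an unadjusted p of 0.05 (dotted line), red higher and blue lower at 50%; the 3 genes of smallest p are numbered in each panel, and gene 69 is the highest point in all of them.

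Among genes with a higher ratio at 50%, gene 73 had the smallest p. It was at -0.45, -0.34, 0.075 and -0.49 in the 10% pools and at 0.27, 0.86, -0.080 and 0.31 in the 50% pools. The groups overlapped by 1 pool on each side, 10% replicate 3 and 50% replicate 3. The difference was 0.75 (SE 0.23), or 1.68-fold (limma, adjusted p = 0.394). It was 0.62 without 10% replicate 4, 0.54 with that array turned and 0.94 without 50% replicate 1. Without background correction it was 0.15 (SE 0.10), and in the deposited ratios 0.22 (SE 0.071). On low-background arrays alone, with 10% replicate 3 alone in its group, it was 0.20. In the pool's channel gene 73 was above the blanks on 10% replicates 3 and 4 and on all 50% arrays. Gene 73 was bright in the pool's channel on the 50% arrays, at 2.24, 2.76, 2.93 and 3.15 times the background, against 1.03, 1.05, 1.33 and 1.06 times at 10%. Here too the reference's channel was brighter on every 50% array, and after normalization it was 2.12 log2 units higher at 50%, against 2.76 for the pool.

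Gene 24 was at -0.81, -0.24, -0.060 and 0.016 in the 10% pools and at 0.35, 0.14, 0.036 and 0.25 in the 50% pools. The groups did not overlap, but the highest value at 10% and the lowest at 50% lay closer together than 1 SD of either group. The difference was 0.50 (SE 0.17) on the log2 scale (limma, adjusted p = 0.438). It was 0.31 without 10% replicate 1, 0.57 without 10% replicate 4 and 0.51 with that array turned. Gene 24 was above the blanks in the pool's channel on 10% replicates 3 and 4 and on all 50% arrays, at no more than 1.19 times the background on any of the 8. On 10% replicate 2 neither channel was above the blanks, so no fold is given.

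Gene 144, one of the brightest genes of the array, was at -0.17, -2.14, -0.32 and -0.16 in the 10% pools and at 0.57, 0.34, 0.40 and 1.42 in the 50% pools. All 4 pools at 50% were above all 4 at 10%, and 10% replicate 2 lay far below the rest of its group. The difference was 1.77 (SE 0.65), or 3.41-fold (limma, adjusted p = 0.438). It was 1.49 without 10% replicate 2, 1.69 without 10% replicate 4 and 1.70 with that array turned. With an array left out it was largest without 50% replicate 1, at 2.42. It was 1.38 without a dye term, 0.79 (SE 0.74) without background correction and 0.52 (SE 0.42) in the deposited ratios. On low-background arrays alone it was 0.89 and in Cy3 pools alone 0.82, each resting on a single array in 1 group. With median centring in place of loess its sign changed, to -1.27. The pool's channel of gene 144 differed little between the groups, at 11.94 ± 0.30 and 11.85 ± 0.36 (log2 intensity, SD, n = 4 each). After normalization the reference's channel was at 12.6 ± 1.11 at 10% and 11.2 ± 0.47 at 50%. The higher ratio at 50% thus went with a normalized reference that was lower on average. The groups overlapped there, with 10% replicate 1 at 11.67 and 50% replicate 3 at 11.73, and 10% replicate 2 was highest at 14.22. Relative to local background the reference did not show this: it was at 2.12, 2.12, 11.3 and 8.88 times at 10%, and at 54.4, 3.17, 12.9 and 5.98 times at 50%.

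In genes 46, 35 and 51, 10% replicate 4 was the highest of the 10% pools and overlapped the 50% pools. Gene 46 was at -0.35, -1.64, -0.29 and 0.31 in the 10% pools and between -0.015 and 0.30 at 50%. Gene 35 was at -0.16, -0.62, -0.24 and 0.35 against 0.21, 0.0088, 0.41 and 0.15. Gene 51 was at -0.87, -1.02, 0.0066 and 0.67 against 0.14, 0.12, -0.20 and 1.01. The lowest pool of each gene was 10% replicate 2, and in gene 46 it lay farther from the other 10% pools than replicate 4 did. The 2 spots of gene 46 on 10% replicate 2 were far apart, at -0.55 and -2.73, and its pool's channel there was not above the blanks. The differences of genes 46, 35 and 51 were 0.70 (SE 0.28), 0.42 (SE 0.17) and 0.72 (SE 0.30), with an adjusted p of 0.438 by limma for each. They were 0.89, 0.55 and 0.93 without 10% replicate 4, and 0.83, 0.56 and 1.00 with it turned, where the adjusted p-values were 0.112, 0.0972 and 0.0990 by limma. Without 10% replicate 2 the difference was 0.31 for gene 46 and 0.27 for gene 35, and without 50% replicate 4 it was 0.44 for gene 51. With the pool in Cy3 alone the differences were 0.0016 for gene 46, 0.15 for gene 35 and -0.20 for gene 51, against 1.13, 0.58 and 1.26 in Cy5. In the pool's channel gene 46 was above the blanks on 2 arrays at 10% and 3 at 50%. These counts were 3 and 4 for gene 35, and 2 and 4 for gene 51.

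The other higher genes of small p were genes 25, 60, 154 and 34. Genes 25 and 60 had differences of 0.46 (SE 0.22) and 0.29 (SE 0.15) and were above the blanks in the pool's channel on 2 of 4 arrays at 10% and 4 of 4 at 50%. The difference in gene 60 was 0.39 without 10% replicate 4 (adjusted p = 0.268 by limma), 0.42 with it turned and 0.17 without 10% replicate 2. That in gene 25 was 0.46 without 10% replicate 4, 0.34 with it turned and 0.28 without 10% replicate 1. Gene 154 was not well above the blanks in the pool's channel on any 10% array and was so on 3 of 4 at 50%. Its pools did not overlap (-0.47 to -0.024 against -0.018 to 0.18), but the bound that its dim signal allows was under 1, so no fold is given (adjusted p = 0.483 by limma). Its difference of 0.33 was 0.26 without 10% replicate 4 and 0.13 with that array turned, and its unadjusted p of 0.0413 by limma became 0.101 and 0.469. Gene 34 was not well above the blanks on any 50% array and on 2 of 4 at 10%, so no fold is given. Its ratio was higher at 50% by 0.21 (0.18 without 10% replicate 4, 0.11 with it turned) while its pool's channel was dimmer there by 0.39 log2 units and its reference's by 0.61.

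Among genes with a lower ratio at 50%, gene 37 had the largest difference, although gene 69 had the smallest p. Gene 37 was the brightest gene of the array, at a mean of 16.2 times the background over both channels of the 8 arrays. It was at 0.35, -0.15, 0.26 and 1.49 in the 10% pools and at -1.76, -0.16, -0.12 and -0.96 in the 50% pools. Only 10% replicate 2 overlapped the 50% pools, and 10% replicate 4 was the highest value. The difference was -1.25 (SE 0.54), or 2.38-fold lower (limma, adjusted p = 0.438). It was -0.93 without 10% replicate 4, -0.61 with that array turned and -0.75 without 50% replicate 1. With median centring it was -4.01 and passed (adjusted p = 0.0286 by limma). As in gene 69, both channels of gene 37 were brighter on average at 50%, the reference by 2.01 and the pool by 0.77 log2 units, and the reference values of the groups did not overlap.

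Genes 178, 67 and 54 were higher in the 10% pools by a narrower margin. Gene 178 was at 0.42, 0.28, 0.40 and 0.90 at 10% and at 0.078, -0.22, -0.37 and -0.088 at 50%, with no overlap. On 10% replicates 1 and 2 neither channel of gene 178 was above the blanks. Its difference was -0.57 (SE 0.23, adjusted p = 0.438 by limma). It was -0.49 without 10% replicate 4 and -0.18 with it turned, since that array held the highest value. Gene 67 was at 0.24, 0.55, 0.57 and 1.05 against 0.51, 0.20, -0.72 and -0.51, with 50% replicate 1 inside the range of the 10% pools. On 10% replicate 1 neither channel of gene 67 was above the blanks. Its difference of -0.61 (SE 0.25) was -0.55 without 10% replicate 4 and -0.16 with the array turned. Gene 54 cleared the blank limit in each channel of the 8 arrays. It was at 0.28, 0.40, 0.70 and 0.27 at 10% and at 0.062, -0.18, -0.15 and 0.13 at 50%, again with no overlap. Its difference was -0.52 (SE 0.26, adjusted p = 0.641 by limma), the same without 10% replicate 4 and -0.40 with it turned.

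The remaining genes of small p on the lower side were near the limit of detection. Gene 169 was at 0.82, 0.46, -0.074 and -0.26 in the 10% pools and between -0.15 and -0.013 at 50%, so that 10% replicates 1 and 2 lay above every pool at 50%. Its difference of -0.47 (SE 0.18) was -0.55 without 10% replicate 4 and -0.58 with that array turned. Gene 169 was above the blanks in the pool's channel on 2 of 4 arrays at 10% and 1 of 4 at 50%. Genes 125 and 91 had differences of -0.24 (SE 0.13) and -0.25 (SE 0.14), which were -0.25 and -0.20 without 10% replicate 4 and -0.22 and -0.083 with it turned. Without 10% replicate 3 gene 125 was at -0.16, and without 10% replicate 1 or 2 gene 91 was at -0.40 or -0.16. Genes 104 and 118 were not well above the blanks on any 50% array and at 10% only on replicate 4, so no fold is given for either. The difference of gene 104, -0.31 (unadjusted p = 0.0248 by limma), was -0.23 without that array and -0.19 with it turned (unadjusted p = 0.0654 and 0.111 by limma). That of gene 118, -0.21, was -0.18 and -0.11, and -0.13 without 10% replicate 1 or 50% replicate 3.

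**Figure D4:**
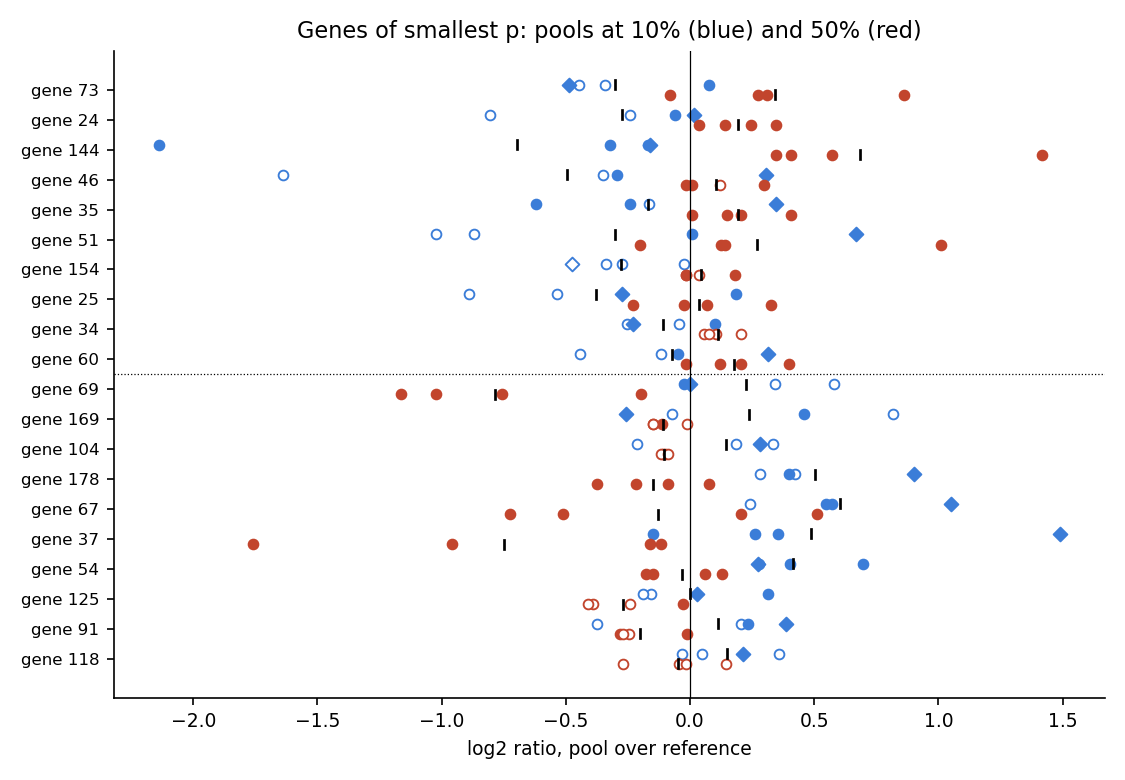
Log2 ratio of pool over reference in each pool for the 10 genes of smallest p with a higher ratio at 50% (above the dotted line) and the 10 with a lower ratio (below it). Blue is 10%, red is 50%, diamonds are 10% replicate 4, open symbols are not above the blank spots in the pool's channel and black bars are group means; gene 69 is the only gene past the adjusted threshold.

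Counted over all genes without a model, 7 of 152 (4.61%) had pools of one group entirely on one side of the other. Genes 24, 113, 144 and 154 were higher at 50% (2.63%) and genes 54, 69 and 178 lower (1.97%). Gene 113, which is singled out after its values were seen, was at -0.16 to -0.022 at 10% and at 0.060 to 0.27 at 50% (unadjusted p = 0.0824 by limma). With 10% replicate 4 turned, 8 genes (5.26%) did not overlap, 5 higher (3.29%) and 3 lower (1.97%), and of the 7 only genes 24, 144 and 69 were still among them. Without that array, where 3 pools face 4, the count was 12 (7.89%), 7 higher (4.61%) and 5 lower (3.29%).

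Only 11 of the 152 genes cleared the blank limit in both channels of every one of the 8 arrays, and 28 did so on none. Of the 11, 5 had a higher ratio at 50%, and genes 144 and 37 were the 2 with an unadjusted p under 0.05. The 11 genes were no more precise than the rest, with a median standard error of 0.58 against 0.18 over all genes. Their median difference, without regard to sign, was 0.33 against 0.14 over all genes. The normexp offset of 50 holds the ratios of dim spots near 0. Over all genes the median standard error was 0.18 with it, 0.30 with an offset of 10 and 0.041 without background correction. What part the offset has in a small standard error of a dim gene was not tested.

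The 5 brightest genes were 37, 121, 144, 31 and 130. Gene 121 spread most, at -3.78, -0.10, -0.23 and 3.13 in the 10% pools and at -0.70, -1.04, 0.45 and 0.44 in the 50% pools. Its 2 spots lay far apart on the 2 extreme arrays, at -5.89 and -1.66 on 10% replicate 1 and at 5.90 and 0.35 on 10% replicate 4. The 10% pools alone spanned more than the whole 50% group, and the difference of 0.33 (SE 0.96) was 1.21 without 10% replicate 4 and 1.67 with it turned. Gene 31 was at 1.36, -1.21, 0.012 and 0.082 against 1.20, -0.54, -1.11 and -0.69, a difference of -0.11 (SE 0.58). Leaving out 10% replicate 4 gave -0.25 for gene 31, and turning it gave -0.077. Gene 130 was at 2.25, 0.90, -1.32 and -0.54 against 2.21, 0.46, -0.096 and 0.59, a difference of 0.33 (SE 0.62), against 0.14 and 0.095 in these same treatments. Genes 121, 31 and 130 did not differ by more than the spread between pools and arrays, with an adjusted p of 0.9502 by limma for each. The 95% interval for gene 121 ran from -1.73 to 2.39. Gene 130 passed on the low-background arrays alone (3.52, adjusted p = 0.0213 by limma) and on the Cy3 pools alone (3.13, adjusted p = 0.0258 by limma), both of which rest on a single array in 1 of the groups.

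Ratios varied more between the 10% arrays than between the 50% arrays. The median SD of a gene was 0.33 at 10% and 0.19 at 50%, and 109 of the 152 genes had the larger SD at 10%. Without 10% replicate 4 the median at 10% was 0.26, and 97 genes had the larger SD there. With it turned these were 0.29 and 107. Each array's own spread of ratios over genes was 0.62, 0.44, 0.29 and 0.54 at 10% (SD, replicates 1 to 4) and 0.44, 0.31, 0.35 and 0.36 at 50%. The 3 widest among the 10% arrays were those of high Cy5 background, and replicate 3, with a low background, was the narrowest of the 8. The median gap between the 2 spots of a gene was 0.31, 0.26, 0.20 and 0.35 on the 10% arrays and 0.17, 0.19, 0.25 and 0.19 on the 50% arrays. The SDs of genes are not adjusted for the dye, and pools were in Cy5 on 2 arrays at 10% and on 3 at 50%. What part the background or the dye has in this spread was not tested.

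The change of each channel between the groups was set side by side for all genes. The reference's channel differed by a median of 0.268 log2 units in size between the groups, against 0.259 for the pool's channel. It moved more than the pool's channel in 80 of 152 genes. Of the 13 genes of unadjusted p under 0.05, the reference moved more in 5: genes 37, 46, 67, 69 and 144. In 4 of the 13, genes 37, 69, 73 and 104, the reference values of the groups did not overlap, as in 22 of all 152 genes. The reference moved more in 67 of 152 genes without 10% replicate 4 and in 61 with its channels exchanged, and in 5 of the 13 both ways. In gene 69 the reference was then higher at 50% by 1.91 or 1.90 and the pool by 0.83 or 0.89, and in gene 37 the reference by 1.52 or 1.64 and the pool by 0.61 or 1.15.

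**Figure D5:**
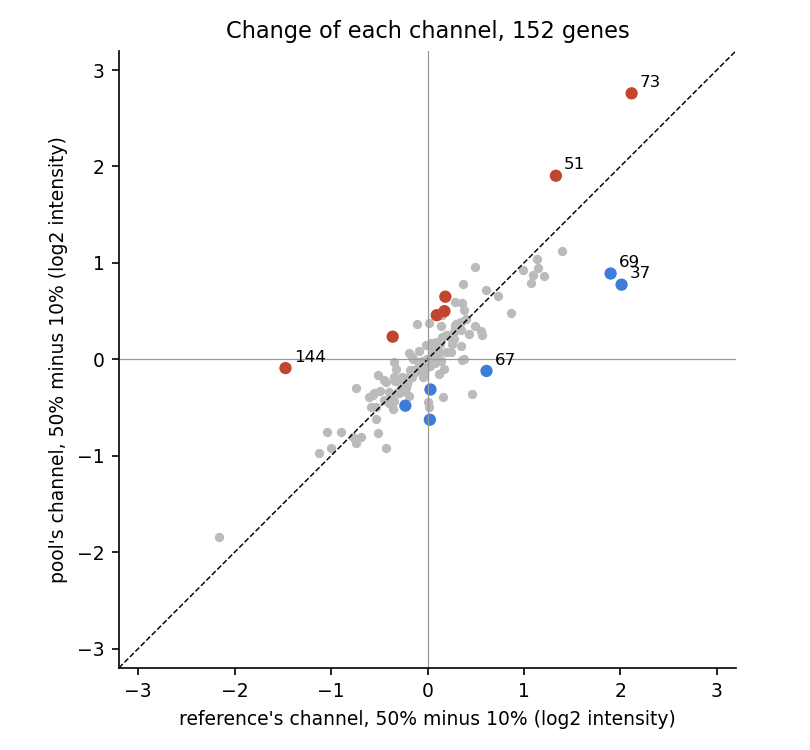
Change from 10% to 50% effluent of the normalized log2 intensity in the reference's channel (x axis) and in the pool's channel (y axis) for 152 genes. Points on the dashed line have no change in ratio; red and blue points have an unadjusted p under 0.05 and a higher or lower ratio at 50%, and genes 69, 37 and 144 leave the line mainly along the axis of the reference.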

How the data were processed

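Dual-colour cDNA arrays of 384 spots were read from the deposited scanner files, which hold per-spot intensity and local background intensity in Cy3 and Cy5, per the file headers. The authors' deposited table holds log2 ratios of the same arrays and was used as an alternative; its scale, centring and direction were inferred from the scanner values. No source used here names the scanner or the image software.

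Intensities were corrected with normexp (offset 50) and loess within arrays (span 0.3), with blank, Q and SSC spots at weight 0, in limma 3.58.1 under R 4.3.3. Ratios were turned to pool over reference by dye label, and the spots of each of the 152 genes were averaged (2 spots for 151 genes, 4 for gene 160). One limma model over 16 arrays held 4 group means and a dye term, with Benjamini-Hochberg adjustment over 152 genes at 0.05. Channel levels were normalized between all 16 arrays by Aquantile. The models were tested on simulated data. Depth has no meaning for arrays, whose number limits the precision.

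Named genes were the 10 of smallest p in each direction and the 5 brightest, 23 genes in all. Members and lists were chosen with earlier results of these data known. Lists of genes by function were not run, since no table pairs the array numbers with names. Alternatives covered the direction and omission of 10% replicate 4, each array left out, the arrays fitted, dye, background correction, normalization, dim genes, Cy5 background class and replicate number. The channel changes without 10% replicate 4, or with its channels exchanged, were added after seeing the data.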

Additional observations from a re-analysis of the deposited data

Results flagged for a closer look

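Of 48 sets of 4 pools examined, 2 had a pool standing well apart from the rest of its set, and chance alone marks about 1 in 20. Gene 144 was at -2.14 in 10% replicate 2, while the other 10% pools lay between -0.32 and -0.16 (log2 ratio). Gene 91 was at -0.012 in 50% replicate 1, while the other 50% pools lay between -0.28 and -0.24.

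Spots marked Q entered no comparison. They were above the limit set by the blank spots in 59.8% of their Cy3 values and 62.5% of their Cy5 values (112 values per channel), against 0.391% and 0% of the blank spots themselves. What Q stands for is not given in the sources used here.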

How the results depend on the processing

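The number of genes past the adjusted threshold in limma was 0 in 13 of 24 alternatives and at least 1 in 11; gene 69 passed in 8 and kept its sign in 24 (-1.31 to -0.49). The count was 0 with the 8 arrays alone (unadjusted p under 0.05 in 11 genes), with these and 10% replicate 4 left out (14) or turned (15), without background correction (15), in the deposited ratios (23), with the Cy5 background class as a block (9) and with a dye term per class too (6), and in Cy5 pools alone (32). Without a dye term 7 genes had an unadjusted p under 0.05, and on low-background arrays alone 4 did. Leaving out each array in turn gave 0 to 1 genes past the adjusted threshold, 7 to 18 at unadjusted p under 0.05, 7 to 14 without overlap, and a detection difference of 3.56 to 28.3 points. Genes without overlap numbered 3 without background correction and 1 with median centring. The plain difference of gene 69 was -1.09 with median centring (exact permutation p = 0.0857) and -1.21 to -0.88 with an array left out (exact permutation p = 0.0571 whenever a 10% array was). Replicate numbers did not pair the arrays (correlations of same-numbered arrays 0.107, 0.0117, 0.160 and -0.0108), and with a replicate block 1 gene passed (gene 69, adjusted p = 0.00882 by limma) and 12 had an unadjusted p under 0.05. Of 545 values of the 23 named genes under alternatives, 41 changed sign, and 8 genes kept theirs in all; the cause was not tested. With median centring these were genes 144 (-1.27), 35 (-0.0022), 34 (-0.036), 91 (0.47), 118 (0.044), 121 (-2.46) and 130 (-2.49). In Cy3 pools alone they were 51 (-0.20), 25 (-0.19), 60 (-0.012), 169 (0.015), 121 (-2.14) and 31 (1.15), and in Cy5 pools alone 130 (-1.25). Without background correction they were 154 (-0.015), 34 (-0.024), 91 (0.045), 118 (0.0027) and 121 (-0.55), and with offset 10 genes 121 (-0.25) and 130 (-0.19). In the deposited ratios they were 154 (-0.037), 25 (-0.019), 104 (0.018), 125 (0.0093), 91 (0.043) and 121 (-0.17). With the class as a block it was 31 (0.56), and with a dye term per class 25 (-0.032), 60 (-0.0045), 121 (-0.41) and 31 (1.03). On low-background arrays alone they were 25 (-0.42), 104 (0.11), 121 (-0.46) and 31 (1.19). With an array left out, gene 121 ranged from -0.90 (without 10% replicate 1) to 1.21, gene 31 from -0.51 to 0.63 (without 10% replicate 1; 0.076 without 50% replicate 3), and gene 130 from -0.62 (without 50% replicate 1; -0.10 without 10% replicate 3) to 1.02. Signal near background limits most genes: 72 of 152 cleared the blank limit in both channels on at least 4 of the 8 arrays.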
